A study of Saccharomyces cerevisiae with 4 samples.

Results

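The chromatin around 10 early-firing replication origins of budding yeast was examined for histone H3 phosphorylated at threonine 45 (H3T45p) and for total H3. On chromosome 3 the origins were ARS305 (at 39.5 kb), ARS306 (74.5 kb), ARS307 (108.9 kb), ARS309 (132.0 kb), ARS310 (166.6 kb) and ARS315 (224.8 kb). On chromosome 6 they were ARS603.5 (118.6 kb), ARS605 (135.9 kb), ARS606 (167.7 kb) and ARS607 (199.4 kb). Every 150 bp window whose midpoint lay within 5 kb of an origin was a member, which gave 666 of the 81046 windows in the files, 66 or 67 per origin. The other 3246 windows of chromosomes 3 and 6 served for comparison. Positions are those known for these origins, were not read from the signal, and are given to 0.1 kb. The choice of this set was made with earlier results of these data known. The files name no genome build and their chromosome ends differ from those of the annotation at hand, so it is not established that these positions and the files share a build. Coordinates of windows and peaks are the files' own.

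The data are ChIP-seq signals (chromatin immunoprecipitation followed by sequencing) from strain BY4741 in rich medium (YPD) at mid-log phase. There were 4 groups of 1 library each: H3T45p and H3 from cells given 200 mM hydroxyurea for 2 h, and H3T45p and H3 from cells without the drug. The anti-H3 antibody binds the C terminus and recovers H3 with or without the phosphate. Both hydroxyurea libraries carry the number 1 in their titles and both untreated libraries the number 2, so an effect of the drug and any difference between those numbered sets cannot be told apart. The libraries held 23588153 to 28690293 reads in windows. With 1 library per group no test of the conditions is possible, no p-value is given, and every difference below describes these libraries. No input DNA library was among the 4, so more DNA copies of a region and more H3 per copy cannot be told apart.

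Budding yeast origins are short sequences (autonomously replicating sequences, ARS) bound by the origin recognition complex, which loads the MCM helicase in G1 phase. The kinase Cdc7, with its partner Dbf4, then phosphorylates MCM so that the origin fires in S phase. The series concerns phosphorylation of H3 by the same kinase. Some origins fire early in S phase and others late. Hydroxyurea inhibits ribonucleotide reductase, so that forks from early origins slow down for want of deoxynucleotides, and the checkpoint kinases Mec1 and Rad53 hold back the late origins. The origin itself is typically free of nucleosomes and lies between positioned ones.

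Both H3T45p and H3 were higher around the early origins in hydroxyurea than in untreated cells, relative to the rest of the 2 chromosomes, and the ratio between them differed less. The windows within 5 kb are 17.0% of the windows of chromosomes 3 and 6. They held 20.9% of the H3T45p reads of these chromosomes in hydroxyurea (exact binomial 95% interval 20.8 to 20.9%), against 17.9% in untreated cells (17.8 to 17.9%). They held 21.2% of the H3 reads in hydroxyurea (21.1 to 21.2%), against 19.1% in untreated cells (19.0 to 19.2%). These intervals cover counting error only, since reads are not independent molecules. All 4 shares lay above the share of windows, and the shares in hydroxyurea above those in untreated cells.

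Change was then taken window by window, as the log2 of the signal in hydroxyurea over that in untreated cells, with 28.3 added to each signal (10% of the genome median). Windows with very little H3 (under 25% of the genome median in either condition, 69.3 in hydroxyurea and 69.9 in untreated cells) were left out, which kept 586 of the 666 windows (88.0%). The median change of H3T45p was 0.38 at the early origins (quartiles 0.16 and 0.57) and 0.079 in the rest of the 2 chromosomes. The median change of H3 was 0.25 at the early origins (0.048 and 0.41) and 0.034 in the rest. On the log2 scale the early origins thus exceeded the rest by 0.31 (H3T45p) and 0.22 (H3). The quartile ranges of origins and rest overlap, since the rest ran from -0.20 to 0.36 for H3T45p and from -0.18 to 0.24 for H3.

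Single windows followed the same order. H3T45p was higher by 0.5 or more (log2) in 206 of the 586 kept windows (35.2%), where 8.64% of all 70662 kept nuclear windows and 14.4% of the rest of the 2 chromosomes passed. It was lower by as much in 4 windows (0.683%), where 5.93% of the genome passed. H3 was higher by 0.5 or more in 83 windows (14.2%), where 3.9% of the genome and 5.78% of the rest of the 2 chromosomes passed, and lower by as much in 10 (1.71%), where 6.99% of the genome passed. Windows with more of either antibody's signal were thus several times as frequent near the early origins as in the genome.

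The chromosome 3 origins are taken first, in order along the chromosome, by their median signal per window. At ARS305, among the most active origins of this chromosome, H3T45p was 575 in hydroxyurea against 410 in untreated cells, and H3 was 564 in hydroxyurea against 468 in untreated cells. At ARS306, also an efficient origin, H3T45p was 682 in hydroxyurea against 426 in untreated cells, and H3 was 646 in hydroxyurea against 514 in untreated cells. ARS306 had the highest signal of the 10 origins in hydroxyurea for both antibodies. At ARS307 H3T45p was 540 in hydroxyurea against 414 in untreated cells, and H3 was 473 in hydroxyurea against 438 in untreated cells. At ARS309 H3T45p was 456 in hydroxyurea against 344 in untreated cells, and H3 was 441 in hydroxyurea against 324 in untreated cells.

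The last pair on chromosome 3 differed from these. At ARS310 H3T45p was 360 in hydroxyurea and 306 in untreated cells, while H3 was lower in hydroxyurea, at 298 in hydroxyurea against 349 in untreated cells. At ARS315 H3T45p was 522 in hydroxyurea against 436 in untreated cells, and H3 was 501 in hydroxyurea against 517 in untreated cells. These were the 2 origins at which the median H3 signal did not exceed that of untreated cells. At ARS310 the direction depends on the measure, since the median of the H3 change taken window by window was 0.090.

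On chromosome 6 all 4 origins had more of both. At ARS603.5 H3T45p was 325 in hydroxyurea against 273 in untreated cells, and H3 was 323 in hydroxyurea against 258 in untreated cells. At ARS605 H3T45p was 269 in hydroxyurea against 251 in untreated cells, and H3 was 266 in hydroxyurea against 227 in untreated cells. ARS605 rests on fewer data, since 18 of its 66 windows had no reads in any library and 43 were kept. At ARS606 H3T45p was 434 in hydroxyurea against 329 in untreated cells, and H3 was 443 in hydroxyurea against 315 in untreated cells. At ARS607, among the earliest and most efficient origins of the genome, H3T45p was 579 in hydroxyurea against 392 in untreated cells, and H3 was 578 in hydroxyurea against 451 in untreated cells. Over all 10 origins the median signal was higher in hydroxyurea at 10 for H3T45p and at 8 for H3.

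**Figure D1:**
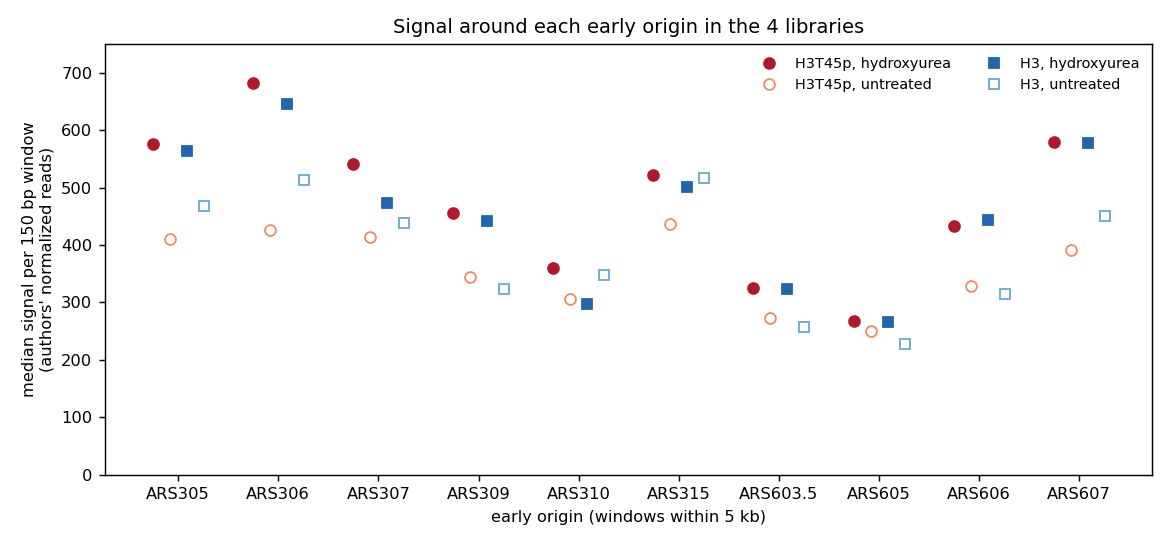
Median signal per 150 bp window (vertical axis, the authors' normalized reads) within 5 kb of each early origin (horizontal axis), with 1 point per library, n = 43 to 66 kept windows per point. H3T45p in hydroxyurea (filled circles) lies above H3T45p in untreated cells (open circles) at all 10 origins, and H3 in hydroxyurea (filled squares) above untreated H3 (open squares) at 8, the exceptions being ARS310 and ARS315.

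Ordered by the median change of H3T45p, ARS306 was first with 0.62 on the log2 scale, followed by ARS607 (0.53), ARS305 (0.45), ARS307 (0.44), ARS606 (0.40), ARS309 (0.38), ARS605 (0.34), ARS315 (0.28), ARS603.5 (0.22) and ARS310 (0.089). All 10 lay above the median of 0.079 of the rest, ARS310 by only 0.010. The mean over origins was 0.37 ± 0.15 (SD, n = 10 origins, which are loci and not replicates). Odd-numbered and even-numbered windows of the same origin gave medians that differed by 0.042 in the median and by at most 0.14 (at ARS605). Neighbours in this order differ by less than the largest of these gaps, though several differ by more than the median gap.

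Ordered by the median change of H3, ARS606 came first (0.38), then ARS309 (0.36), ARS305 and ARS306 (0.31 each), ARS603.5 and ARS605 (0.31 each) and ARS607 (0.29). These 7 lay within 0.10 of each other, about the largest gap between odd and even windows (0.10). ARS307 (0.17), ARS310 (0.090) and ARS315 (-0.041) followed, and 9 of the 10 lay above the rest of the 2 chromosomes, the exception being ARS315. The mean was 0.25 ± 0.13 (SD, n = 10 origins).

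Sums of all reads, with no filter and nothing added, were also set against the sums of the rest of the 2 chromosomes. For H3T45p the log2 of the share in hydroxyurea over that in untreated cells lay above 0 beyond counting error at 9 origins, from 0.18 (0.15 to 0.20) at ARS315 to 0.50 (0.48 to 0.52) at ARS306. At ARS310 it was -0.057 (-0.086 to -0.027). For H3 it lay above 0 at 8 origins, from 0.10 (0.082 to 0.12) at ARS307 to 0.36 (0.32 to 0.39) at ARS605. It was -0.015 (-0.044 to 0.013) at ARS310 and -0.14 (-0.16 to -0.12) at ARS315. ARS310 was thus the only origin of the 10 with no excess of reads in hydroxyurea for either antibody by this measure.

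The mean profile across the origins showed the nucleosome-poor centre in all 4 libraries, though not at every origin. The window with the least untreated H3 within 300 bp of the given position was compared with the mean at 1 to 2.5 kb from the same origin. Its H3T45p was a fraction of 0.145 of that flank in hydroxyurea and 0.218 in untreated cells (medians of 10 origins). Its H3 was 0.154 of the flank in hydroxyurea and 0.183 in untreated cells. The window was the lowest of 4 in untreated H3, which favours a low fraction. That it was below its flank at 10 of 10 origins in each library is therefore no separate result. Over all 4 windows together, the fraction for H3T45p was 0.52 in hydroxyurea and 0.60 in untreated cells (medians). For H3 it was 0.52 in hydroxyurea and 0.60 in untreated cells. This mean was below the flank at 9 origins for H3 in hydroxyurea and at 8 in each other library. In untreated H3 the centre exceeded the flank at ARS306 (1.23) and ARS605 (1.11).

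By this lowest window, ARS606 had the emptiest centre and ARS605 the fullest relative to its flank. In the lowest window of ARS606, at chromosome 6 from 167551 to 167700, there were 2 H3T45p and 16 H3 reads in hydroxyurea, against 12 H3T45p and 3 H3 reads in untreated cells. In the lowest window of ARS605, from 135901 to 136050, the H3T45p signal was 183 in hydroxyurea against 139 in untreated cells, and H3 was 118 in hydroxyurea against 89.6 in untreated cells. ARS605 thus kept a fraction of 0.589 of its flank's H3 in hydroxyurea and 0.622 in untreated cells. Its flank was the poorest of the 10 in H3 (mean 200 in hydroxyurea and 144 in untreated cells), which raises this fraction. The lowest window of ARS306 had more H3, at 240 in hydroxyurea and 232 in untreated cells.

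**Figure D2:**
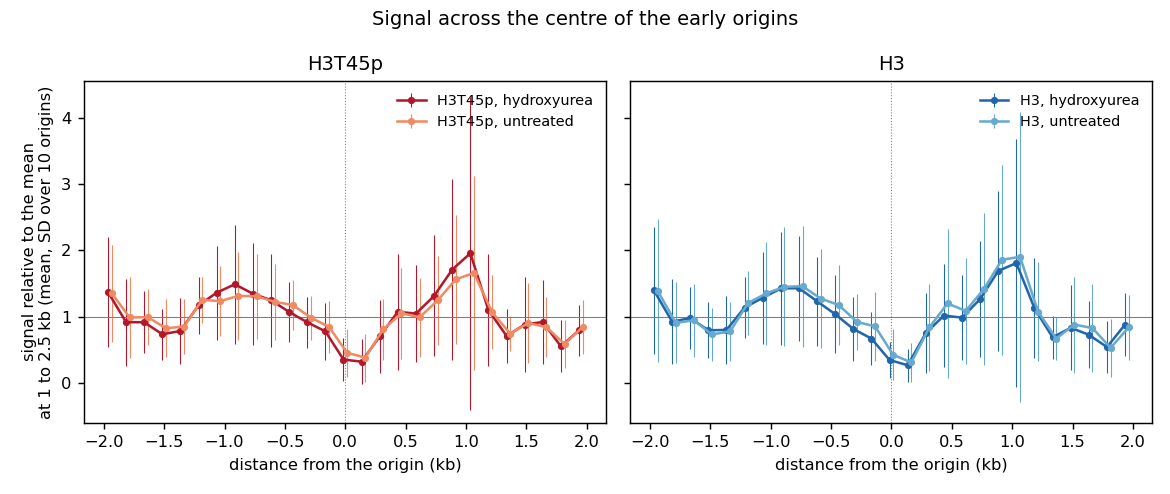
Signal in steps of 150 bp within 2 kb of the 10 early origins (horizontal axis, distance in kb), divided by each origin's mean at 1 to 2.5 kb (vertical axis), for H3T45p (left) and H3 (right). Lines are means and bars SDs over 10 origins, hydroxyurea and untreated in each panel; at the given position the mean for H3T45p was 0.354 in hydroxyurea against 0.456 in untreated cells, and for H3 0.347 in hydroxyurea against 0.426 in untreated cells.

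The excess of H3 in hydroxyurea was mostly smaller at the centre than in the flanks, and the chromosomes differed in this. Over all windows within 300 bp (4 per origin) the mean H3 signal gave a log2 change with a median of 0.018 over origins, while the flank from 1 to 2.5 kb gave 0.32. The flank exceeded the centre at 8 of 10 origins, the exceptions being ARS603.5 (0.38 at the centre and 0.22 in the flank) and ARS606 (0.64 at the centre and 0.33 in the flank). On chromosome 6 the centre change was above 0 at all 4 origins, also at ARS605 (0.34) and ARS607 (0.16), while on chromosome 3 it ran from -0.41 to 0.025. For H3T45p the medians were 0.26 at the centre and 0.40 in the flank, with the flank higher at 9 of 10. Centres varied more, from -0.41 at ARS309 to 0.64 at ARS606 for H3, and the ARS606 value rests on a mean signal of 33.1 in hydroxyurea and 21.2 in untreated cells. In bins of 500 bp the H3 change averaged -0.016 ± 0.22 just left of the origin and 0.088 ± 0.25 just right of it (SD, n = 10 origins). In the 18 outer bins it averaged 0.042 to 0.33, and H3T45p averaged 0.25 to 0.47.

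**Figure D3:**
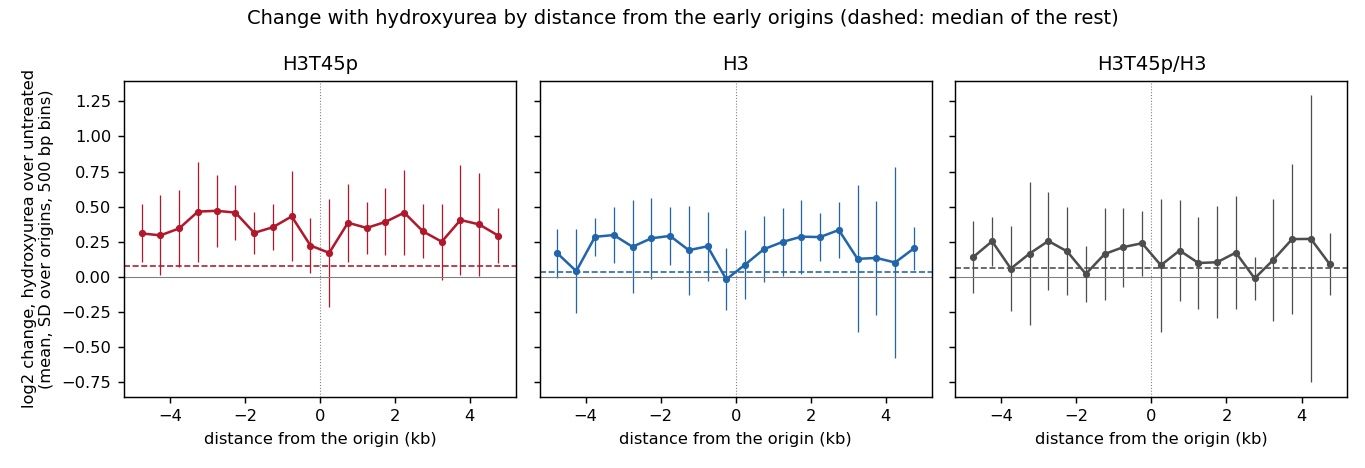
Log2 change, hydroxyurea over untreated (vertical axis), in bins of 500 bp by distance from the early origin (horizontal axis, kb) for H3T45p, H3 and their ratio. Points are means and bars SDs over 8 to 10 origins, and the dashed line is the median of the rest of chromosomes 3 and 6 (0.079, 0.034 and 0.061); the mean H3 change is near 0 in the 2 central bins, where the SDs are 0.22 and 0.25.

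Neither side of the origins was higher as a rule, since the change to the right (toward higher positions) exceeded that to the left at 5 of 10 origins for H3 and at 6 of 10 for H3T45p. Single origins were uneven. At ARS603.5 the median H3T45p change was 0.49 on the left and 0.062 on the right, while that of H3 was 0.23 on the left and 0.38 on the right. At ARS307 the H3T45p change was 0.55 on the left and 0.32 on the right, and the H3 change 0.070 on the left and 0.35 on the right. At both of these origins the side with the larger H3T45p change had the smaller H3 change.

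The excess reached well beyond 5 kb. By distance from the nearest early origin, the median H3 change was 0.33 at 1 to 2.5 kb, 0.25 at 2.5 to 5 kb, 0.20 at 5 to 10 kb, 0.18 at 10 to 15 kb, 0.14 at 15 to 20 kb, -0.022 at 20 to 30 kb and -0.092 beyond 30 kb. The median H3T45p change was 0.39 at 1 to 2.5 kb and at 2.5 to 5 kb, 0.30 at 5 to 10 kb, 0.35 at 10 to 15 kb, 0.19 at 15 to 20 kb, 0.15 at 20 to 30 kb and -0.19 beyond 30 kb. Without the last 20 kb at each chromosome end, the values beyond 30 kb were -0.15 for H3T45p and -0.093 for H3. Since the rest of the 2 chromosomes includes windows only 5 to 20 kb away, the differences of 0.31 and 0.22 given above are smaller than those against far windows. Against inner windows beyond 30 kb the excess of H3T45p was 0.53 and that of H3 0.34, a comparison chosen after the values were seen. Origins lie 17.3 to 58.2 kb from their neighbours on the list, ARS603.5 and ARS605 being the closest pair.

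Late or dormant origins of the same chromosomes were taken in the same way. They were ARS301, ARS303, ARS316, ARS317 and ARS318 on chromosome 3 and ARS601, ARS603, ARS608 and ARS609 on chromosome 6, of which ARS301, ARS303, ARS317 and ARS318 lie near the silent mating loci. Their positions are the commonly cited ones and do not come from the files. In untreated cells the lowest H3 within 300 bp of them was 0 to 172, where the genome median was 280. ARS301 (11.3 kb) and ARS303 (14.7 kb) lie within 5 kb of each other, as do ARS317 (292.6 kb) and ARS318 (294.4 kb). Each window went to the nearer origin, so each of these has only 39 to 45 windows. Each such pair is 1 continuous stretch and not 2 separate regions. The 502 windows of the late or dormant origins are 12.8% of the windows of the 2 chromosomes. They held 10.04% of the H3T45p reads of the 2 chromosomes in hydroxyurea (9.99 to 10.1%), against 12.03% in untreated cells (11.98 to 12.1%). They held 10.3% of the H3 reads in hydroxyurea and 10.9% in untreated cells. Each share lay below the share of windows, also in untreated cells.

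The median H3T45p change was 0.38 at the early origins and -0.094 at the late or dormant ones. The median H3 change was 0.25 at the early origins and -0.015 at the late or dormant ones. The spans over origins overlapped. The 10 early origins ran from 0.089 to 0.62 for H3T45p and from -0.041 to 0.38 for H3. The 9 late or dormant ones ran from -0.63 to 0.62 for H3T45p and from -0.23 to 0.34 for H3. Their highest H3T45p value, at ARS301, rests on 22 kept windows, and their lowest, at ARS318, on 29. H3T45p was higher by 0.5 or more in 35.2% of the early-origin windows and in 8.94% of the late or dormant ones, where 8.64% of the genome passed. With 1 library per group this difference has no replicate check.

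**Figure D4:**
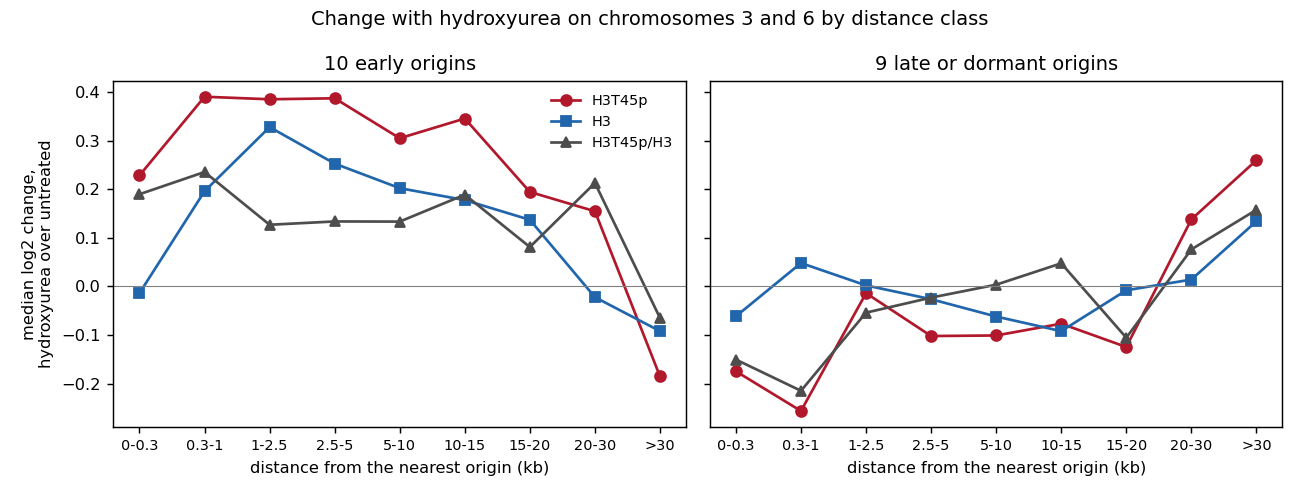
Median log2 change, hydroxyurea over untreated (vertical axis), on chromosomes 3 and 6 by distance from the nearest early origin (left) or late or dormant origin (right, without windows within 5 kb of an early origin), for H3T45p, H3 and H3T45p/H3. Each point is the median over 18 to 1188 kept windows; near early origins H3T45p and H3 lie above 0 from 0.3 to 20 kb, near late or dormant origins no class within 20 kb exceeds 0.048 for either antibody.

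The ratio of H3T45p over H3 sets the H3T45p signal of a window against the H3 recovered there. It is not free of the H3 level, since the untreated genome median fell from 0.23 in windows with the least H3 to -0.46 in those with the most. The normalized libraries had like genome medians (277 to 289), so the ratio compares loci. A genome-wide change of H3T45p cannot be read from it. In hydroxyurea the median log2 ratio was 0.033 at the early origins and 0.0037 in the rest of the 2 chromosomes, a difference of 0.029. In untreated cells it was -0.077 at the early origins and -0.019 in the rest, a difference of -0.058. The change of the ratio, hydroxyurea minus untreated, had a median of 0.15 at the early origins, 0.061 in the rest and 0.054 in the genome. The early origins thus exceeded the rest by 0.093, by 0.13 on chromosome 3 and by 0.0051 on chromosome 6. Single origins did not follow the chromosome. ARS607 on chromosome 6 had a change of 0.26, while ARS309 (0.029) and ARS310 (0.032) on chromosome 3 lay below the rest.

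In hydroxyurea the ratio was 0.5 or more in 19 windows (3.24%), where 3.78% of the genome passed, and -0.5 or less in 11 (1.88%), where 1.96% of the genome passed. Those shares are close to the genome's. In untreated cells the ratio was -0.5 or less in 82 windows (14.0%), where 6.25% of the genome passed, and 0.5 or more in 9 (1.54%), where 2.25% of the genome passed. The change of the ratio was 0.5 or more in 108 windows (18.4%), where 11.1% of the genome passed, and -0.5 or less in 36 (6.14%), where 7.39% of the genome passed. The shares thus departed from the genome's more in the untreated libraries, but the untreated difference of -0.058 was not stable. It was -0.11 on chromosome 3 and 0.0077 on chromosome 6, and it was -0.021 without the last 20 kb of each chromosome end in the rest. With the genome median of each H3 class subtracted, in the classes described further on, it was -0.0029, while the difference in hydroxyurea was 0.018. Within single classes the untreated difference ran from -0.076 to 0.082.

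The origins fell into groups of 5 by the change of the ratio. It was 0.40 at ARS306, 0.35 at ARS315, 0.29 at ARS307, 0.26 at ARS607 and 0.17 at ARS305. It was between -0.021 and 0.032 at ARS603.5, ARS605, ARS606, ARS309 and ARS310. The first 5 had the lowest ratios in untreated cells, from -0.32 at ARS306 to -0.12 at ARS305, and the other 5 had -0.044 to 0.083. Since the untreated ratio enters the change, this is no separate result. In hydroxyurea the 10 ratios spanned only -0.14 (ARS603.5) to 0.10 (ARS605). The 5 origins with the larger change also had the most untreated H3, with median signals of 438 to 517, against 227 to 349 at the others. Untreated H3 is part of the untreated ratio and thereby enters the change, so this is no separate result either.

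**Figure D5:**
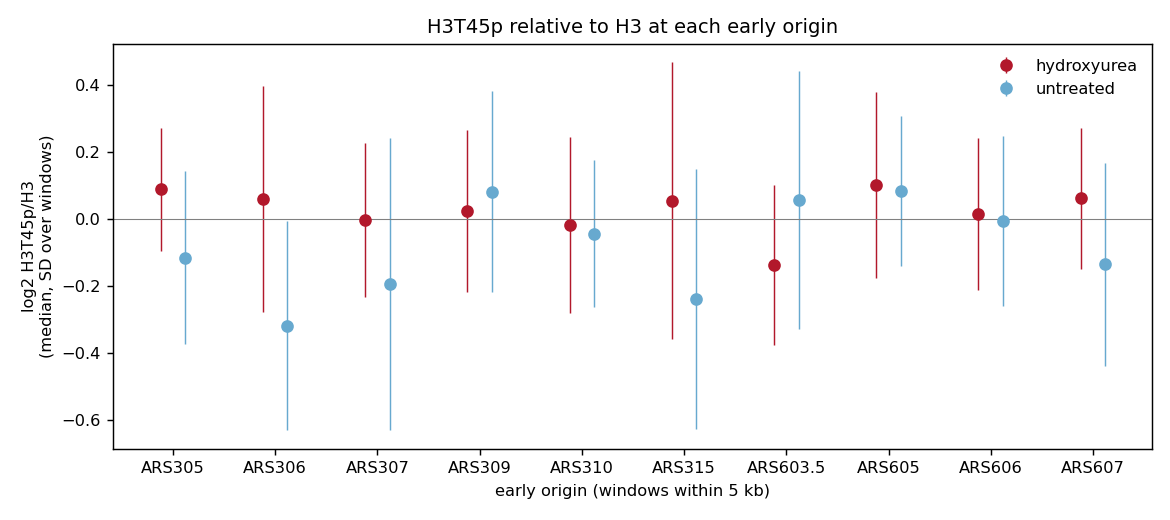
Log2 ratio of H3T45p over H3 (vertical axis) within 5 kb of each early origin (horizontal axis) in hydroxyurea (left point of each pair) and untreated cells (right point). Points are medians and bars SDs over 43 to 66 windows of 1 library pair; the hydroxyurea medians lie between -0.14 and 0.10, and the untreated ones between -0.32 and 0.083.

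The level of H3 moved with the ratio and is given beside it. Kept windows of the genome were put into 10 classes of equal size by their H3 in both conditions. The class with the most H3 held 131 of the early-origin windows (22.4%) and 15.05% of the rest. Within that class the change of the ratio had a median of 0.50 at the early origins and 0.46 in the rest, and in the class with the least H3 it was -0.12 at the early origins and -0.37 in the rest. With each class's median subtracted, the early origins exceeded the rest by 0.036 in the change of the ratio, and 35 windows passed 0.5 (5.97%), where 7.03% of the genome passed. The excess of H3T45p and of H3 stood in all 10 classes, from 0.18 to 0.35 for H3T45p and from 0.12 to 0.32 for H3, while that of the change of the ratio stood in 7 of 10. The untreated ratio was higher at the early origins than in the rest in 6 of the 10 classes.

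The single windows with the highest change of the ratio were at ARS315, ARS306 and ARS307. At ARS315 the windows at chromosome 3 from 228751 to 228900 and from 228601 to 228750, 4.03 and 3.88 kb right of the origin, had changes of 2.94 and 2.43. In the first of these H3T45p was 596 in hydroxyurea against 232 in untreated cells, and H3 was 142 in hydroxyurea against 517 in untreated cells. Both antibodies contributed, in opposite directions. The window at ARS306 from 78301 to 78450 had a change of 1.70, with H3T45p at 643 in hydroxyurea against 136 in untreated cells, and H3 at 135 in hydroxyurea against 101 in untreated cells. The fourth, at ARS315 from 228001 to 228150, had 1.27 and the fifth, at ARS307 from 105751 to 105900, had 1.19.

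The ARS307 window lies in a stretch very rich in H3. It had an H3T45p signal of 1966 in hydroxyurea against 945 in untreated cells, and an H3 signal of 2042 in hydroxyurea against 2272 in untreated cells. The 5 windows with the most untreated H3 near any early origin lay about 3 kb left of ARS307 (3 windows) and of ARS603.5 (2 windows). In all 5 the change of H3T45p was 0.69 to 1.04, and that of H3 was between -0.15 and 0.099. Windows rich in H3 elsewhere went the same way. In the class with the most H3, the median H3T45p change was 0.65 at the early origins, 0.47 in the rest and 0.38 in the genome. The median H3 change in that class was 0.15, -0.035 and -0.096 in the same order. The pattern is thus not particular to these 5 windows, which were picked for their H3.

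The lowest changes of the ratio were smaller in size. They were -0.99, -0.94 and -0.88 at ARS603.5 (chromosome 6 from 118801, from 119851 and from 122101), -0.93 at ARS606 (from 171901) and -0.87 at ARS306 (chromosome 3 from 78751). In each H3 was higher in hydroxyurea, by 0.29 to 0.87, and H3T45p lower, by 0.061 to 0.70. The 3 windows at ARS603.5 were all right of the origin.

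Regions called as H3T45p peaks by the authors covered the early origins no more densely than the rest. The hydroxyurea list had 4 of its 27 peaks on the 2 chromosomes within 5 kb of an early origin, over 1.20% of that sequence, and covered 1.36% of the rest. The untreated list had 1 of its 6, over 0.3% of the sequence near the early origins, and covered 0.308% of the rest. None of these peaks lay at an origin's centre, the nearest being 2.9 kb away. The peaks were at ARS306 (chromosome 3 from 78301 to 78600), at ARS310 (from 163501 to 163950, and from 163501 to 163800 in the untreated list) and at ARS315 (from 227851 to 228000 and from 228601 to 228900). The other 7 origins had no peak.

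The ratio of H3T45p over H3 signal in these peaks was 4.17 in hydroxyurea and 1.69 in untreated cells at ARS306. At ARS310 it was 8.43 in hydroxyurea and 3.21 in untreated cells. At ARS315 it was 4.32 in hydroxyurea and 1.79 in untreated cells for the first peak, and 3.65 in hydroxyurea and 0.517 in untreated cells for the second. H3 was low in both conditions in 3 of these peaks. It was 104 in hydroxyurea against 73.4 in untreated cells at ARS306, and 55.9 against 72.2 at ARS310. In the first peak of ARS315 it was 43.5 in hydroxyurea against 62.0 in untreated cells. Of the windows in these peaks, 1 of 2, 1 of 3 and 0 of 1 passed the H3 filter, so their ratios rest on little H3. The second peak at ARS315 had an H3 signal of 208 in hydroxyurea and 617 in untreated cells. How the authors called peaks is not known here and may itself rest on these signals, so the values only describe the peaks.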

How the data were processed

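The authors deposited for each library a normalized signal per 150 bp window. Dividing by the smallest value above 0 of a library gave whole numbers (tolerance 0.001 read, 100% of values), so whole reads were recovered. Per the submitters' processing notes, BWA 0.5.9-r16 and DESeq were used, with no role given. No source used here gives the genome build or the peak rule. The authors' peak lists hold positions without scores. Their difference tracks were not used.

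Origin positions came from the definition of the windows, and those of late or dormant origins were entered by hand. No annotation of the files' build was used, so windows were not assigned to genes. Members, lists and comparisons were chosen with earlier results of these data known. Named windows are the 5 highest and 5 lowest changes of the ratio and every peak within 5 kb; the 5 windows richest in H3 were added after their values were seen. Medians are over kept windows. Intervals are exact binomial (Clopper-Pearson, 95%, SciPy 1.17.1). No count model was run, because 1 library per group leaves no residual degrees of freedom. The computation was checked on simulated reads. Analyses used Python 3.11.15, pandas 2.3.3 and NumPy 2.4.6.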

Additional observations from a re-analysis of the deposited data

How the results depend on the processing

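The difference between the early origins and the rest of chromosomes 3 and 6 kept its direction for H3T45p, H3, their ratio in each condition and its change under every alternative in this section, with an exception by chromosome given below. For H3T45p (0.31) it was 0.32 and 0.23 with a pseudocount of 1% and 50% of the genome median, 0.28 with an H3 filter at 50%, 0.29 from means over windows, 0.26 without the last 20 kb of each end in the rest, and 0.24 with H3 class medians subtracted. For H3 (0.22) it was 0.23 and 0.17 with those pseudocounts, 0.20 with no filter, 0.19 from means, 0.20 without the ends and 0.23 with class medians subtracted. For the change of the ratio (0.093) it was 0.072 with the 50% pseudocount, 0.11 within 2.5 kb, 0.066 without the ends and 0.036 with class medians subtracted. For the ratio in hydroxyurea (0.029) it was 0.020 with no filter, 0.048 within 2.5 kb, 0.013 from means and 0.018 with class medians subtracted. For the untreated ratio (-0.058) it was -0.048 with the 50% pseudocount, -0.042 with the 50% filter, -0.068 within 2.5 kb, -0.083 from means, -0.021 without the ends and -0.0029 with class medians subtracted. This difference was thus near 0 after that subtraction. By chromosome, a split not counted among these alternatives, the untreated ratio difference was -0.11 on chromosome 3 and 0.0077 on chromosome 6. Its direction was therefore not kept on chromosome 6.

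Against inner windows beyond 30 kb, added after the data were seen, the values were 0.53 for H3T45p, 0.34 for H3, 0.18 for the change of the ratio, 0.067 in hydroxyurea and -0.099 in untreated cells; against the rest of the nuclear genome they were 0.37 for H3T45p and 0.27 for H3. The 108 windows with a ratio change of 0.5 or more became 69 with the 50% pseudocount, 61 within 2.5 kb (fewer windows) and 35 with class medians subtracted. Leaving out each origin in turn (leave-one-out) gave 0.27 to 0.33 for H3T45p, 0.20 to 0.25 for H3, 0.066 to 0.12 for the change of the ratio, 0.018 to 0.038 in hydroxyurea, -0.070 to -0.040 in untreated cells and 84 to 106 windows. Without ARS607 the ratio difference in hydroxyurea was 0.018, a move of over 1.5 times. Counting peaks by their centre gave the same 4 and 1. No paired analysis was possible because the groups share fewer than 2 replicate numbers. The lowest centre window of ARS606 held 2 to 16 reads per library, so its ratio is not resolved at this depth.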

Other observations

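The late or dormant origins did not behave alike, although each has only 1 library per group. ARS608, 17.0 kb from the early origin ARS607, had a median log2 change of 0.41 for H3T45p and 0.33 for H3, within the span of the early origins. ARS301 and ARS303, which lie 28.2 and 24.8 kb from ARS305, had H3T45p changes of 0.62 and 0.22 and H3 changes of 0.26 and 0.34. ARS301 rests on 22 kept of 45 windows and ARS303 on 30 of 44, with 6 and 5 windows without reads in any library. The other 6 lie 48.1 kb or more from an early origin, and both changes were below 0 at each of them. For H3T45p these were -0.12 at ARS316, -0.47 at ARS317, -0.63 at ARS318, -0.24 at ARS601, -0.078 at ARS603 and -0.21 at ARS609. For H3 they ran from -0.23 at ARS609 to -0.014 at ARS601. ARS317 and ARS318 lie in 1 stretch and rest on 25 kept of 40 windows and 29 of 39.

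At ARS317 and ARS318, next to the silent locus HMR, the median log2 ratio of H3T45p over H3 was -0.11 and -0.019 in hydroxyurea, against 0.36 and 0.45 in untreated cells. At no early origin did the untreated median ratio exceed 0.083, but H3 differed too. The median untreated H3 signal was 144 at ARS317 and 210 at ARS318, against 227 to 517 at the early origins. In the 2 classes of windows with the least H3 the untreated ratio was 0.25 and 0.28 near early origins, and 0.32 and 0.21 in the rest of the 2 chromosomes.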
